A study of Caenorhabditis elegans with 8 samples.

Results

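The data are the gene expression levels of dissected gonads of wild-type (wt) young adult Caenorhabditis elegans, ranked across the genome. They come from 3 of the 8 RNA sequencing libraries of the series, chosen by their titles as wt replicates 3, 4 and 5. The other libraries are from sin-3(syb2172) and hda-3(ok1991) mutants, in which subunits of a histone deacetylase co-repressor were altered, and none of them is compared here. The study used the wild type as the baseline for the germline programme that the co-repressor was to be tested on. Each wt library was made from the gonads of 9 to 12 animals without a mutation or a transgene named in the labels. The gonads were cut out in cold water with no drug to hold the animals still, and their RNA was copied and amplified by a low-input method of the Smart-seq2 type. The labels call the replicates of a strain biologically independent, and they give neither the sex nor an exact age of the animals. All levels are therefore those of pools of gonads, in which fewer cells of a type and less RNA per cell cannot be told apart.

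The adult gonad of a C. elegans hermaphrodite is a tube in which germ cells are laid out in order of their development. Stem cells divide at the distal tip under Notch signalling, their descendants enter meiosis, and oocytes grow at the proximal end while they are loaded with RNA and protein from a shared cytoplasm. Sperm are made earlier, in the larva, before the germ line turns to oocytes. Transcription stops in the last oocytes, so that much of the RNA they hold is stored under the control of RNA-binding proteins. A thin somatic sheath surrounds the germ cells, and the X chromosome is known to be kept largely silent in most germ cells.

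Levels are given as TPM, a share of transcripts corrected for gene length, which were computed from the deposited read counts by dividing each count by the gene's exon length and scaling every library to a total of 1000000 with nuclear ribosomal RNA left out. They can be compared between genes as levels per transcript length. Nuclear ribosomal RNA took 47.7 to 64.001% of the 16979891 to 23535429 reads on genes, which left 6112574 to 12299755 reads on all other genes. A count of 0 in a library allows a level of up to 3 reads, that is 0.244 to 0.491 in each 1000000 reads outside ribosomal RNA, for counting error only. Values are mean ± SD over n = 3 libraries. With 1 group there was no comparison to test, and every value below describes these 3 libraries.

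Of 19971 annotated protein-coding genes of the nuclear genome, 6204 (31.1%) reached 1 TPM in all 3 wt libraries and are counted as detected. A further 1225 genes reached it in 1 or 2 libraries only, 7649 had reads but stayed under 1 TPM in every library, and 4893 had no read in any library. The median level of the detected genes was 20.9 TPM, with quartiles at 6.83 and 56.3 TPM. Taken by library, this median was 16.014, 20.871 and 24.996 TPM in replicates 3, 4 and 5. A gene that rises from replicate 3 to replicate 5 can therefore follow this shift of the whole library. How far single genes did so was not tested. Levels were concentrated in few genes. The 10 highest genes held 34.1, 25.6 and 28.6% of the TPM total in replicates 3, 4 and 5, and the 100 highest held 69.1, 61.3 and 60.3%. Just 46 genes made up 50% of the total, while 869 genes averaged at least 100 TPM. The set of the 100 highest genes by mean held 97, 98 and 96 of each library's own 100 highest.

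The highest gene was ndk-1 (WBGene00009119, chromosome I:10553116-10553913 in WBcel235), which encodes a nucleoside diphosphate kinase. Its level was 80196, 56715 and 59713 TPM in replicates 3, 4 and 5, a mean of 65541 ± 12779 TPM, and it alone held 6.55 ± 1.28% of the total. Replicate 3 stood above the others, and ndk-1 ranked first by mean with nearly double the level of the next gene. That gene was clec-87 (WBGene00007709, chromosome I:10184462-10185520), which encodes a protein with a C-type lectin domain, at 46317, 30664 and 32343 TPM. Here too replicate 3 was the highest, and 85.6% of the gene's exon bases lay outside other genes.

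Genes of protein synthesis filled most of the next places. The gene rpl-12 for a large-subunit ribosomal protein had 32641, 27227 and 28989 TPM. Elongation factor genes followed closely, with eef-1B.1 at 25766 ± 4250 TPM, eef-1A.1 at 23067 ± 1729 TPM and eef-1G at 14774 ± 3908 TPM. Others among the 20 highest had different roles. The RNA-binding protein gene rbm-3.2 (WBGene00011156, chromosome I:11910328-11911021) had 29649, 29882 and 28109 TPM, which is a narrow spread for a gene of this rank. Its neighbour rbm-3.1 had 5353 ± 336 TPM. The gene ant-1.1 (WBGene00006439, chromosome III:13463163-13464652) for the mitochondrial carrier that exchanges ADP for ATP had 29535, 20777 and 29324 TPM, lowest in replicate 4. The small heat shock protein gene sip-1 (WBGene00004798, chromosome III:10506106-10506801), known for its presence in embryos, had 37860, 19423 and 20067 TPM. Replicate 3 was close to 2-fold above the other libraries for sip-1, of whose exon bases 80.8% were unshared. The linker histone genes hil-4 and hil-5 had 14168 ± 2294 and 6554 ± 1359 TPM, and rmd-1, a regulator of microtubule dynamics, had 10161 ± 2635 TPM. The eggshell gene perm-2 and the Y-box RNA-binding protein gene cey-2 completed the non-ribosomal members of the 20 highest genes.

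Outside ribosomal proteins, translation factors, histones, tubulins and actins, the 15 highest genes were ndk-1, clec-87, rbm-3.2, ant-1.1, sip-1, rmd-1, perm-2, cey-2, rbm-3.1, perm-4, cpg-3, Y37E3.8, cyn-7, cpg-1 and grif-1. Of these, cyn-7 for a cyclophilin, a class of proline isomerase, had 4004 ± 547 TPM, and grif-1 had 3792 ± 613 TPM. Of the 100 highest genes, 56 were cytosolic ribosomal proteins, 6 were eggshell or fertilization genes, 6 were translation factors, 3 were oocyte RNA regulators or maternal factors, 3 were C-type lectin genes and 2 were histone genes.

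**Figure D1:**
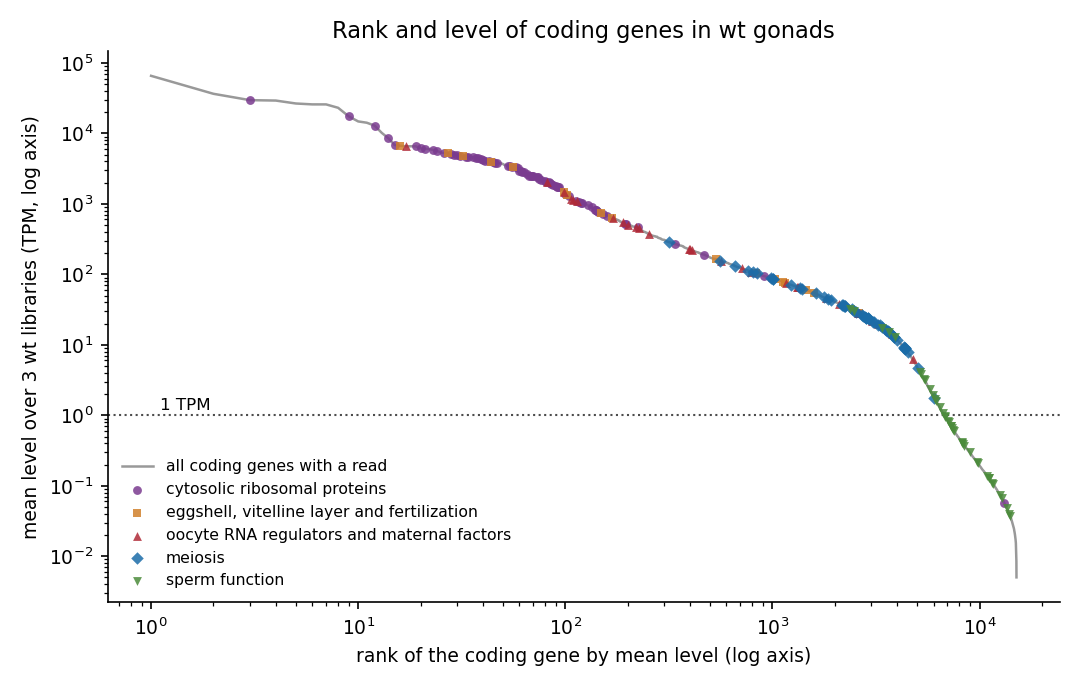
Mean level over the 3 wt libraries (TPM, vertical log axis) against the rank of each coding gene with a read (horizontal log axis), with members of 5 gene lists marked. Ribosomal protein genes fill the upper ranks, eggshell genes reach 6669 TPM, meiosis genes lie between 1.75 and 287 TPM, and most sperm function genes lie under the dotted line at 1 TPM.

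Genes of the growing oocyte stood highest among the germline lists. All 17 genes of the list for the eggshell, the vitelline layer and fertilization were detected, with a median of 576 ± 73.1 TPM, against 31.1% detected over all coding genes and a median of 20.9 TPM over the detected ones. The gene perm-2, which is required for the permeability barrier of the egg, had 7312, 9342 and 3353 TPM. Its partner perm-4 had 5854, 7115 and 2767 TPM. Both were highest in replicate 4 and lowest in replicate 5, and the same held for cpg-1 at 3685, 5492 and 2526 TPM and cpg-2 at 3158, 4734 and 2138 TPM, genes for chondroitin proteoglycans of the eggshell. The third proteoglycan gene, cpg-3, differed from them in being highest in replicate 3, with 5710, 4858 and 3530 TPM. The yolk receptor gene rme-2 was steadier, at 1185, 1420 and 1339 TPM. The oocyte surface protein genes egg-1 and egg-2, which are needed for sperm entry, had 626 ± 156 and 164 ± 32.3 TPM. The chitin synthase gene chs-1 had 84.7 ± 21.98 TPM, while gna-2, whose enzyme makes a precursor of chitin, had 747 ± 80.4 TPM. The whole list held 2.99, 3.74 and 1.87% of the TPM total in replicates 3, 4 and 5, a low value in replicate 5.

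All 30 genes of the list of oocyte RNA regulators and maternal factors were detected, with a median of 178.6 ± 47.7 TPM and 1.79 ± 0.373% of the total. The Y-box protein gene cey-2 had 7190, 7234 and 5281 TPM, and its relative cey-3 had 2119, 2111 and 1833 TPM. These were close in replicates 3 and 4 and lower in replicate 5. The zinc finger genes that pattern the early embryo had a wider spread. The level of pos-1 was 883, 1790 and 796 TPM, and that of the RNA-binding protein gene spn-4 was 883, 1652 and 723 TPM. In both, replicate 4 had about double the level of the other libraries. The genes oma-1 and oma-2, which act together in oocyte maturation, had 226 ± 47.2 and 625 ± 225 TPM. The Pumilio-family genes puf-5, puf-3 and puf-11 had 1151 ± 299, 546 ± 191 and 372 ± 137 TPM. The lowest member was apx-1, which encodes a maternal Notch ligand, at 6.22 ± 1.40 TPM.

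**Figure D2:**
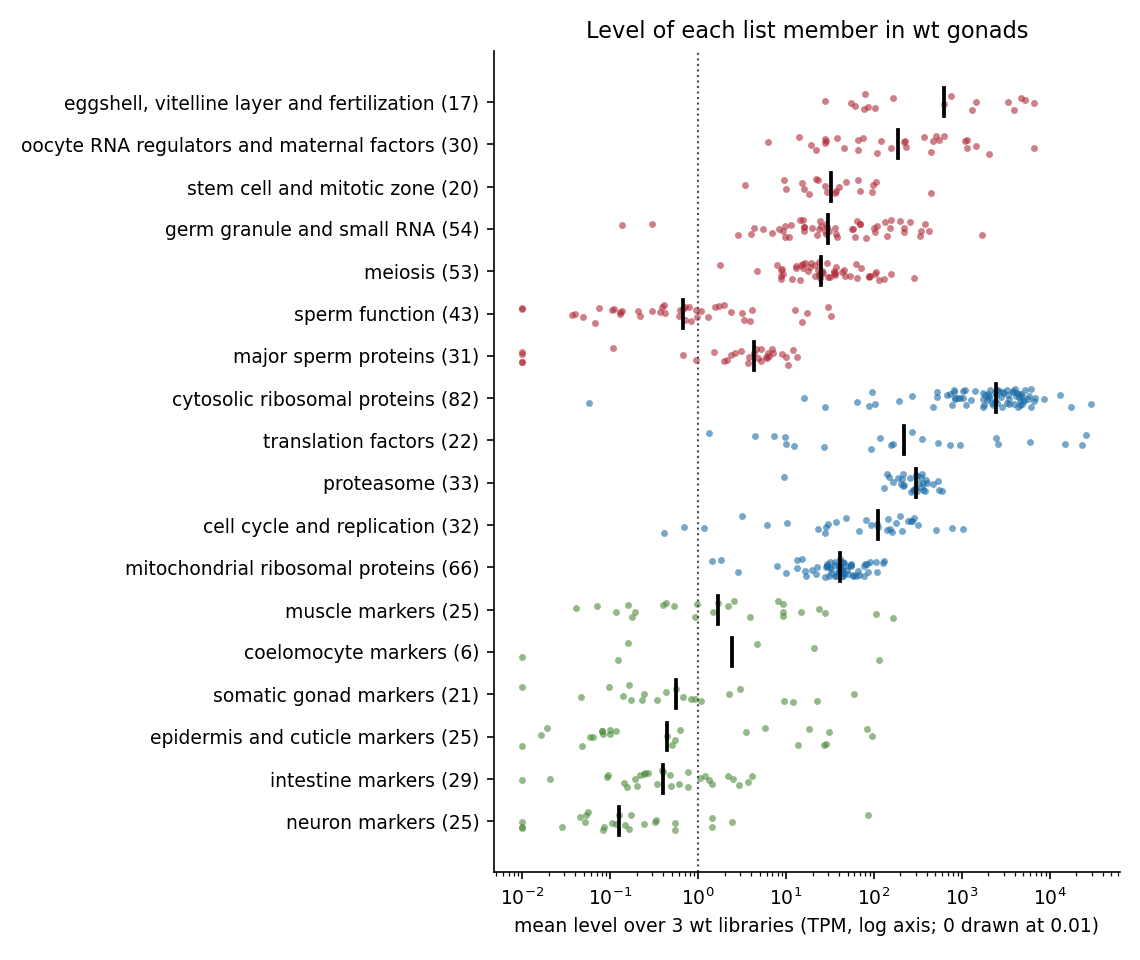
Mean level over the 3 wt libraries of every member of 18 gene lists (TPM, horizontal log axis, genes without a read drawn at 0.01), with the number of members in brackets and a black bar at the median of the members' means. Lists of the germ line are red, lists of growth are blue and marker lists of other cell types are green, and the dotted line marks 1 TPM.

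The list named stem cell and mitotic zone held 20 genes, all detected, with a median of 30.5 ± 6.17 TPM. The Notch receptor gene glp-1 had 16.5, 34.1 and 32.9 TPM, lowest in replicate 3. Its targets in stem cells are lst-1 and sygl-1. The level of lst-1 was 72.4, 99.9 and 121 TPM, and that of sygl-1 was 49.7, 13.2 and 23.7 TPM. The 2 targets thus ordered the libraries differently, with replicate 3 lowest for lst-1 and highest for sygl-1. The order for lst-1 was that of the median of all detected genes, so it can follow the shift of the whole library. The Pumilio-family genes fbf-1 and fbf-2, which keep stem cells from entering meiosis, had 39.7 ± 17.3 and 36.0 ± 15.8 TPM, and their ranges overlapped, although fbf-1 was slightly above fbf-2 in each of the 3 libraries. The gene gld-1, whose product represses translation as cells enter meiosis, had 29.4, 43.2 and 37.04 TPM. The highest member was nos-2, a Nanos-family gene, with 486, 448 and 415 TPM. The lowest member was sel-8, a Notch co-activator gene, with 3.45 ± 0.0749 TPM.

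All 53 meiosis genes were detected, with a median of 26.1 ± 5.91 TPM, close to the median of all detected genes, and together they held 0.228 ± 0.0436% of the total. The highest was lab-1, which protects cohesion on the long arms of meiotic chromosomes, with 337, 206 and 317 TPM. Synaptonemal complex genes, which encode the zipper between paired chromosomes, spanned a wide range. Replicate 5 stood out in syp-2, with 106.4, 109 and 248 TPM, and in syp-4, with 84.6, 92.4 and 162 TPM. The other members were lower, with syp-3 at 87.2 ± 14.003 TPM, syp-6 at 25.9 ± 7.503 TPM, syp-1 at 23.7 ± 3.05 TPM and syp-5 at 15.7 ± 3.19 TPM. Among axis genes, htp-1, htp-2 and him-3 had 132 ± 31.1, 106.3 ± 12.6 and 103 ± 16.8 TPM, levels whose ranges overlapped although htp-1 was the highest in each library, and htp-3 was lower at 24.7 ± 8.98 TPM. The meiotic cohesin gene rec-8 had 31.8 ± 5.78 TPM.

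The break and crossover genes covered more than 1 order of magnitude. The recombinase gene rad-51 had 59.4, 81.4 and 72.1 TPM. The gene spo-11, whose product cuts DNA to start recombination, had 34.8, 45.2 and 80.7 TPM, and the crossover factor gene cosa-1 had 21.5, 23.2 and 61.2 TPM. For both of these genes replicate 5 was the highest by far. The crossover genes him-14 and msh-5, which encode the MutS partners, were nearly equal at 9.01 ± 2.94 and 8.87 ± 2.07 TPM. The pairing-centre genes zim-1, zim-2 and zim-3 lay between 14.5 and 17.7 TPM with overlapping ranges, while him-8, which serves the X chromosome, had 36.0 ± 12.4 TPM. The lowest member was the kinase gene chk-2, which drives entry into pairing and break formation, with 1.19, 1.87 and 2.19 TPM.

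Of 54 germ granule and small RNA genes, 52 were detected, with a median of 31.3 ± 6.95 TPM. The highest was the DEAD-box helicase gene cgh-1, which acts on stored messengers, with 1550, 2041 and 1473 TPM. The next was tofu-1 with 353, 346 and 553 TPM. Among P granule genes, glh-1, the Vasa homologue, had 236, 405 and 504 TPM and pgl-1 had 197, 296 and 274 TPM. Both were lowest in replicate 3. Their relatives were lower, with pgl-3 at 141 ± 30.7 TPM, glh-2 at 69.4 ± 16.3 TPM, glh-4 at 15.96 ± 6.78 TPM and glh-3 at 10.7 ± 3.69 TPM. Among Argonaute genes, wago-1 had 330 ± 107 TPM, the Piwi gene prg-1 had 80.5, 185 and 208 TPM, hrde-1 had 108 ± 22.9 TPM and csr-1 had 102 ± 12.4 TPM. The genes alg-3 and alg-4, Argonautes of the sperm-making germ line, were the only list members under 1 TPM, at 0.299 ± 0.0266 and 0.137 ± 0.0408 TPM. The 4 X-linked members, meg-1, meg-3, meg-4 and meg-2, which help to form P granules in the embryo, had 35.9, 14.3, 9.26 and 2.81 TPM on average.

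Genes of sperm were lower. Of 43 sperm function genes, 11 (25.6%) were detected, a share near the 31.1% over all coding genes, and 2 had no read in any library. The median was 0.546 ± 0.0304 TPM, against 0.194 TPM over all coding genes. The highest members were fog-2, a gene of the decision to make sperm in hermaphrodites, with 27.9, 33.01 and 37.1 TPM, and spe-39, a vesicle trafficking gene, with 20.6, 33.7 and 36.1 TPM. Then came spe-5, which encodes a subunit of the vacuolar proton pump, with 17.5 ± 7.73 TPM, and spe-44, a transcription factor gene of spermatogenesis, with 15.2 ± 4.08 TPM. The CPEB-family gene cpb-1 had 12.7 ± 4.95 TPM, and no other member exceeded 4.09 TPM. Genes for parts of the finished sperm were near the floor, with spe-9 at 0.310, 0.779 and 0.0871 TPM, spe-38 at 0.383, 0.267 and 0 TPM and fer-1 at 0.0200, 0.0559 and 0.0704 TPM. Such levels rest on few reads, and differences between them were not detectable at this depth. Major sperm protein genes, which encode the cytoskeleton of the crawling sperm, summed to 212, 121 and 88.2 TPM over 31 genes, highest in replicate 3. Of these, 20 (64.5%) were detected, and the list median was 3.90 ± 2.05 TPM. Their highest member, msp-50, had 19.3, 10.95 and 9.42 TPM. These genes are near-identical copies and reads aligned to more than 1 place were not counted, so their single values are uncertain.

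Regulators of chromatin lay in the middle ranks. All 9 genes of the list of SIN3 and class I histone deacetylases were detected, with a median of 33.4 TPM. The scaffold gene sin-3 had 16.1, 22.8 and 23.8 TPM. Of the deacetylase genes, hda-1 had 96.7, 146 and 114.7 TPM, above hda-3 at 24.1, 31.0 and 45.01 TPM and hda-2 at 18.8, 20.3 and 30.03 TPM. The order was hda-1, hda-3 and hda-2 in each of the 3 libraries, although the ranges of hda-3 and hda-2 over the libraries overlapped. The histone-binding gene lin-53 was the highest member with 295 ± 73.7 TPM. All 31 genes of histone methylation and chromatin repression were detected, with a median of 15.98 ± 4.67 TPM and cec-3, a chromodomain gene, at the top with 277 ± 104.3 TPM.

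The machinery of growth and division was strongly represented. The 82 cytosolic ribosomal protein genes had a median of 2404 ± 240 TPM and held 26.7 ± 1.27% of the TPM total, with 27.2, 27.7 and 25.3% in replicates 3, 4 and 5. Their summed level differed little between libraries. The member with the fewest reads was rpl-42, with 1, 0 and 0, and what lies behind this count was not tested. The next lowest were the X-linked rpl-25.1 at 15.9 TPM, rpl-41.1 at 28.0 TPM and the X-linked rpl-11.2 at 64.1 TPM. The 66 mitochondrial ribosomal protein genes were all detected and lower, with a median of 40.3 ± 8.29 TPM. The 33 proteasome genes were all detected and had a median of 298 ± 51.7 TPM, with pbs-1 for a core subunit at 596 ± 67.0 TPM. The gene rpn-6.2 was apart from the rest, at 9.53 TPM.

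Of 32 cell cycle and replication genes, 29 were detected, with a median of 111 ± 24.6 TPM. The cyclin gene cyb-3 had 929, 1368 and 807 TPM, the sliding clamp gene pcn-1 had 812, 923 and 571 TPM, and rnr-2 for ribonucleotide reductase had 512, 621 and 401 TPM. All 3 genes were highest in replicate 4 and lowest in replicate 5. In the chaperonin that folds actin and tubulin, 6 of 8 subunit genes had 177 to 482 TPM. The other subunit genes, cct-3 and cct-8, were at 4.53, 10.2 and 9.32 TPM and at 5.27, 8.17 and 7.89 TPM. Their counts were 94, 152 and 275 reads for cct-3 and 99, 110 and 211 reads for cct-8, and no exon base of either gene overlapped another gene. The subunits act in equal numbers in the complex, and what lies behind these low counts was not tested.

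Structural gene families rested on a few members. Among 16 tubulin genes, tbb-2, tba-1, tba-2 and tbb-1 had 1924, 1078, 1041 and 682 TPM on average, the centrosomal tbg-1 had 163 ± 35.9 TPM, and no other tubulin exceeded 4.18 TPM. Among 5 actin genes, act-2 had 1886, 2611 and 1947 TPM and held 85.6% of the family's level. Among 240 C-type lectin genes, 7 (2.92%) were detected, against 31.1% over all coding genes, and clec-87 alone held 85.8% of the family's level. It was followed by clec-91 with 4305, 2823 and 2897 TPM and clec-88 with 2919, 2693 and 2364 TPM, and the next gene had 3.46 TPM. Histone genes were uneven. After hil-4 and hil-5, the highest were another linker histone gene, hil-2, with 679 ± 231 TPM, his-68 with 476 ± 151 TPM and htz-1, the H2A.Z variant gene, with 365 ± 157 TPM. Of 84 histone genes, 39 had no read in any library. Core histone genes exist as near-identical copies whose reads align to several places, so a count of 0 for a copy does not give its level.

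Families of receptors, neuropeptides, F-box and homeobox genes had smaller shares detected at this depth than the 31.1% over all coding genes. Of 1310 chemoreceptor genes, 5 (0.382%) were detected and 710 had no read. The exception in level was sri-40 (WBGene00005552, chromosome II:3177963-3180478) with 195, 165 and 196 TPM, from 1893, 1149 and 2714 reads. The spread between libraries was small for sri-40, and the next members, srg-20 and srt-14, had 2.48 ± 0.817 and 2.38 ± 1.92 TPM. Of 269 nuclear hormone receptor genes, 24 (8.92%) were detected, led by nhr-49, a regulator of fat metabolism, with 10.2, 17.7 and 23.8 TPM. Of 140 neuropeptide genes, 7 (5%) were detected, and nlp-36 was far above the others at 22.1, 21.9 and 21.8 TPM. Of 322 F-box genes, whose proteins choose targets for ubiquitin ligases, 28 (8.70%) were detected. The highest were fbxc-50 with 253, 208 and 370 TPM, fbxa-215 with 126, 167 and 135 TPM and fbxa-101 with 66.3 ± 14.98 TPM. The homeobox genes named ceh had 14 detected members of 63 (22.2%), none above 16.3 TPM.

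The labelled tissue was checked against markers of the cell types that a dissected gonad could carry along. Genes that define the intestine were near the floor, as 2 of 29 markers (6.90%) were detected, against 31.1% over all coding genes. The highest, asp-3, had 10.9, 0.479 and 0.844 TPM. The intestinal regulator elt-2 had 0.606 TPM, and the yolk protein gene vit-2 had 4.47, 3.94 and 0.322 TPM. The summed level of the intestinal list was 45.6, 22.4 and 11.3 TPM in replicates 3, 4 and 5. Of 25 neuron markers, 3 (12%) were detected, while rab-3 and unc-47 had no read. The gene snb-1, which encodes a vesicle protein, made up most of the sum with 85.7 ± 12.1 TPM. Of 25 muscle markers, 13 (52%) were detected, a share above the 31.1% over all coding genes. Among them were pat-10 for troponin C with 202, 148 and 142 TPM and act-4 with 83.4, 128 and 103 TPM. Other members were low, such as the myosin genes unc-54 at 1.47 TPM and myo-3 at 0.531 TPM and the regulator hlh-1 at 0.398 TPM. The list median was 1.62 ± 0.323 TPM. Of 6 genes listed as coelomocyte markers, 3 (50%) were detected, against 31.1% over all coding genes. They were cup-2 at 115.2 TPM, cup-5 at 20.9 TPM and rme-8 at 4.64 TPM. The others were low, as cup-4 had 0 reads, unc-122 had 0.161 TPM and lgc-26 had 0.122 TPM. This short list was thus split, and its share detected is not read as a sign of coelomocytes. The summed levels of the muscle, neuron and coelomocyte lists differed less between libraries, with 335 to 413 TPM, 84.8 to 108 TPM and 125 to 156 TPM.

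Of 21 markers of the somatic gonad itself, 6 (28.6%) were detected, a share near the 31.1% over all coding genes, and the list summed to 74.0, 183.9 and 84.0 TPM. Replicate 4 was the highest, and most of its excess lay in inx-8, a gap junction gene of the sheath, with 42.3, 107 and 28.0 TPM, and in inx-9 with 4.72, 18.2 and 5.69 TPM. The filamin gene fln-1 had 13.04, 28.1 and 25.7 TPM. The sheath transcription factor gene lim-7 had 0.674 TPM, and lag-2, the Notch ligand gene of the distal tip cell, had 0.244 TPM. On the germ cell side of these junctions, inx-14 had 101, 117 and 134 TPM, inx-22 had 52.8, 75.3 and 63.2 TPM and inx-21 had 33.6, 48.5 and 67.6 TPM. The germline innexins were present in all libraries above every other innexin except inx-8.

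Among the marker lists of other cell types, the epidermal and cuticle markers differed most between the libraries in summed level. The members of the lists were chosen with earlier results of these data known. This list holds collagen genes, such as col-119 and col-140, that are among the most variable genes of these same libraries. Its place among the lists can therefore follow from how it was filled, and no conclusion is drawn from it. Of the 25 genes, 9 (36%) were detected, a share near the 31.1% over all coding genes. Their summed level was 669, 168 and 93.9 TPM in replicates 3, 4 and 5 over all 25 genes. Most of it in replicate 3 came from collagen genes. The gene col-119 had 247, 29.8 and 10.2 TPM and col-140 had 187, 47.2 and 17.7 TPM. The epidermal regulator lin-26 had 18.3, 32.4 and 42.2 TPM, the same order of libraries as the median of all detected genes. The regulators elt-1 and elt-3 had 0.626 and 0.544 TPM, and the collagen gene dpy-13 had no read. Over all 174 cuticle collagen genes the sum was 1813, 424 and 172 TPM, and the highest gene, col-124, had 384, 78.9 and 25.3 TPM. Replicate 3 was the highest and replicate 5 the lowest in these collagen genes, and the same held for the intestinal sum and the major sperm protein sum. Whether material from other cells entered the libraries was not tested.

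The 3 libraries ranked genes nearly alike, but differed by more than counting error. Across the 6204 detected genes, which are not independent of each other, Spearman's rho of the levels was 0.973 between replicates 3 and 4, 0.964 between 3 and 5 and 0.971 between 4 and 5. More than 2-fold differences in TPM were found in 384 genes (6.19%), 960 genes (15.5%) and 543 genes (8.75%) for these pairs. The counts include the shift of the median between libraries, which was largest between replicates 3 and 5. They therefore do not separate this shift from differences of single genes. The median coefficient of variation was 25.5% between these pools of animals, and counting alone would give 5.79%. Depth did not remove this spread, since genes of 100 TPM or more still varied by 20.1% in the median, with 2.14% from counting.

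Cuticle collagens were 9 of the 10 most variable genes among 4129 of sufficient level, namely col-119, col-178, col-93, col-101, col-181, col-122, col-143, col-20 and col-124, and all were highest in replicate 3. Of the 50 most variable genes, 14 were cuticle collagens, a family in which 16 genes averaged at least 10 TPM. Of the same 50 genes, 17 were highest in replicate 3, 6 in replicate 4 and 27 in replicate 5. Replicate 5 also had the highest median of detected genes. The same split over all 4129 genes is not given here, so these counts do not set the 50 genes apart from the rest. A gene could enter this ranking through 1 library alone, since 100 reads in 1 library and 10 TPM on average were enough. The most variable gene was F26D2.13 (WBGene00009151, chromosome V:16434734-16435610), with 0, 1843 and 0 reads. Its level was 411 TPM in replicate 4 and listed at 0 in the others, where a count of 0 allows up to 3 reads. The heat-inducible hsp-16 genes summed to 2.79, 169 and 213 TPM. Only hsp-16.2 and hsp-16.41 entered this sum, as the entries of hsp-16.1 and hsp-16.48 had no read in any library. Both of these symbols name more than 1 gene entry, and reads aligned to more than 1 place were not counted. A count of 0 for such an entry does not give its level, so the sum may be incomplete. The level of hsp-16.41 was 2.35, 133 and 170 TPM, so that replicate 3 was far below the other libraries. The co-chaperone gene sti-1 had 114, 276 and 637 TPM, and the constitutive chaperone gene hsp-90 had 2746, 4646 and 3627 TPM.

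The 12 coding genes of mitochondrial DNA also set replicate 3 apart, as they held 0.191, 1.72 and 1.06% of the TPM total. Their reads numbered 14089, 91901 and 109311. At the steady end, the profilin gene pfn-1, which encodes an actin regulator, had 737, 737 and 728 TPM, the smallest variation among 1377 genes of at least 50 TPM in every library. The neurotrophic factor homologue manf-1 had 59.2, 58.7 and 57.7 TPM, the ribosomal protein gene rpl-4 had 5722, 5664 and 5573 TPM, and the histone variant gene his-74 had 216, 217 and 209.5 TPM. The other steady genes by the same rule were F58F12.1, lbp-9, rps-6, rnp-4, F23F1.10 and otub-1.

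**Figure D3:**
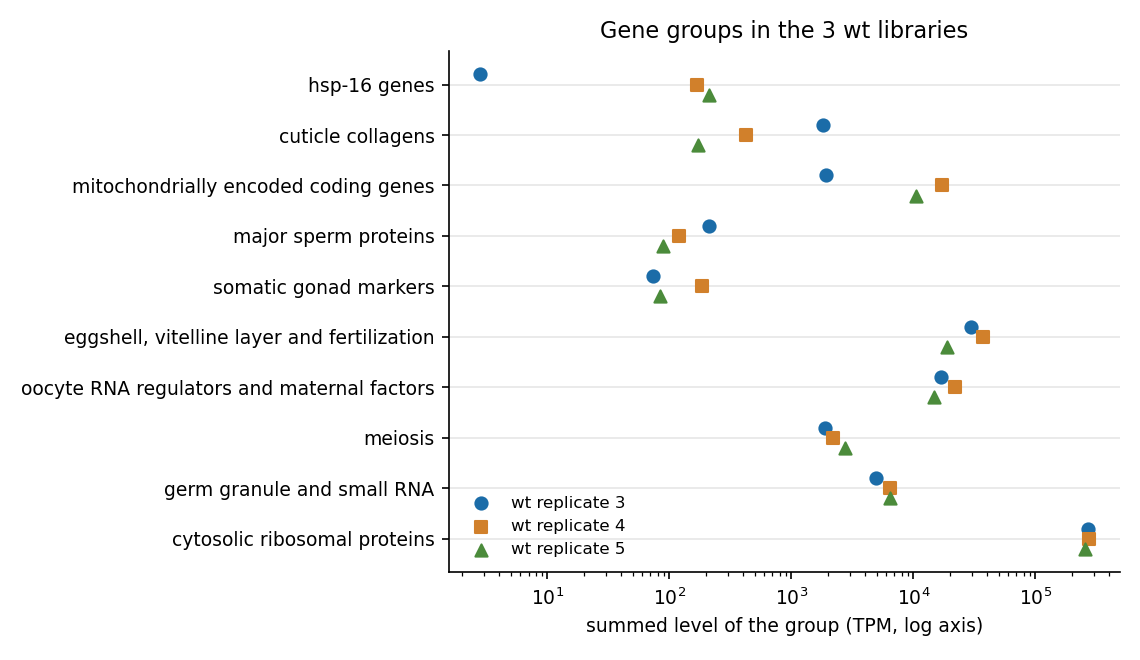
Summed level of 10 gene groups in each of the 3 wt libraries (TPM, horizontal log axis). The hsp-16 genes sum to 2.79 TPM in replicate 3 and to 169 and 213 TPM in replicates 4 and 5, cuticle collagens run the other way with 1813, 424 and 172 TPM, and the ribosomal protein sums nearly coincide.

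X-linked genes were few among the detected genes and low among those. Of 2730 X-linked coding genes, 516 (18.9%) were detected, against 5688 of 17241 autosomal genes (32.99%). The median level of detected genes was 3.30, 4.20 and 3.04 TPM on the X in replicates 3, 4 and 5, against 18.1, 23.4 and 28.4 TPM on the autosomes. The X median was lower in 3 of 3 libraries, with a ratio of X to autosomes of 0.182, 0.179 and 0.107 (0.156 ± 0.0426), and no overlap. With 3 libraries a two-sided exact sign test cannot give a p under 0.25. The ratio depended on the threshold, since it was 0.404 ± 0.130 with detection at 5 TPM and 0.582 ± 0.0397 over all coding genes with no threshold. The X held 0.792 ± 0.177% of the TPM total and none of the 100 highest genes. Only 11 X-linked genes (0.403%) averaged 100 TPM or more, against 858 autosomal genes (4.98%).

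The autosomes also differed in how many of their genes were used. Chromosomes III and I had 49.1 and 46.6% of their coding genes detected, II and IV had 32.4 and 31.97%, and V had 17.8%, slightly less than the X. Once detected, however, genes of chromosome V had a median of 22.8 ± 4.47 TPM, within the range of 21.9 to 24.7 TPM of the other autosomes, whereas the X had 3.51 ± 0.607 TPM. On the autosomes, each cut into 3 equal parts, 38.6% of genes in the central part were detected and 29.5% in the outer parts, with medians of 30.6 TPM in the central part and 19.2 TPM in the outer parts. On the X, 17.3% of genes in the central part and 19.8% in the outer parts were detected.

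**Figure D4:**
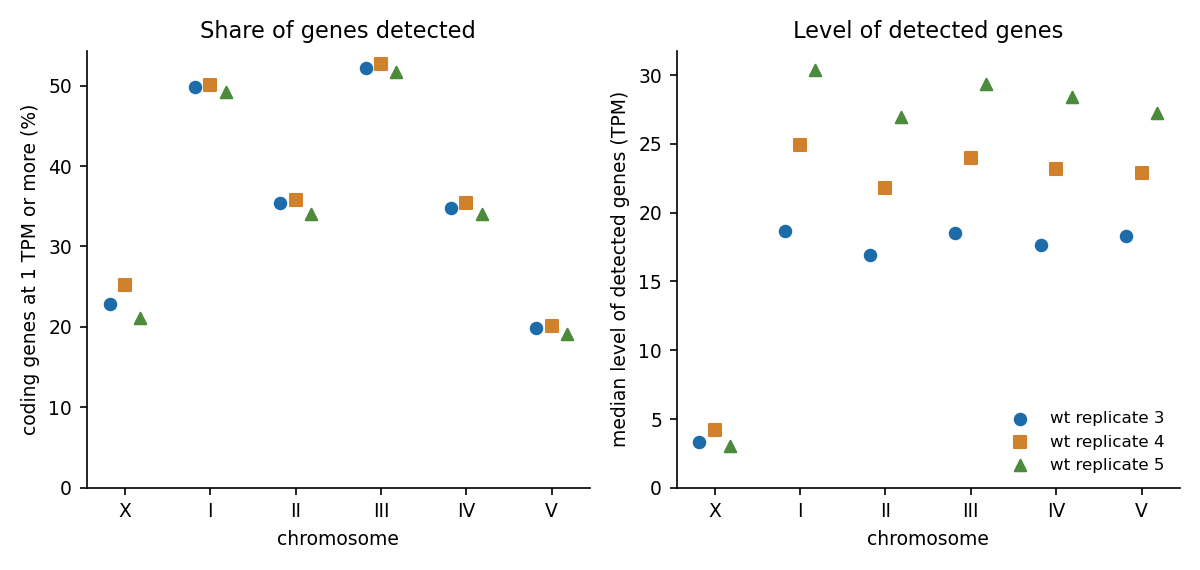
Share of coding genes at 1 TPM or more (left, %) and median level of the detected genes (right, TPM) by chromosome, with 1 symbol per wt library. Chromosome V and the X have similar shares, but the X alone has medians near 3 to 4 TPM.

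The highest X-linked gene was F23A7.8 (WBGene00044638, chromosome X:16213373-16213576), with 823, 1365 and 763 TPM, which ranked 125th of all coding genes. Its neighbour F23A7.4 had 373, 517 and 269 TPM. The protease-family gene try-14 had 543, 741 and 233 TPM, and T04G9.7 had 381, 547 and 315 TPM. In all 4 genes replicate 4 was the highest and replicate 5 the lowest. The next genes were F46H5.3 with 253 ± 46.2 TPM, ZK380.6 with 227 ± 73.6 TPM, pdi-2 for a protein disulfide isomerase with 211 ± 48.7 TPM, rgs-9 for a regulator of G protein signalling with 194 ± 45.3 TPM, pdi-6 with 165 ± 70.6 TPM and C07D8.6 with 163 ± 41.9 TPM. The exon length of ZK380.6 is 81 bases and those of F23A7.8 and F23A7.4 are 204 and 207 bases, and TPM values of such short genes rest on a small divisor.

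Families with numbered copies tended to be carried by a single copy. Among sets of genes whose symbols differ only in the number after the point, 64 summed to at least 10 TPM. In 35 of these 1 copy held 90% or more of the level, in 18 it held 99% or more, and in 11 it held under 60%. The cytochrome c gene cyc-2.1 had 718, 828 and 1357 TPM, while cyc-2.2 had 0.573, 0.400 and 0.403 TPM. The carrier gene ant-1.1 held 99.99% of its set. By contrast, the cyclin genes cyb-2.2 and cyb-2.1 had 241 and 176 TPM, and wdr-5.3 and wdr-5.1, genes of WD-repeat proteins, had 63.98 and 58.1 TPM. For wdr-5 the order of the 2 genes changed between libraries, as wdr-5.1 was above wdr-5.3 in replicate 5 only.

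In 22 of these sets some copies were X-linked and others autosomal, and the highest copy by mean was autosomal in 20 and X-linked in 2. A set could reach 10 TPM through its highest copy alone, so these counts depend on that filter. Mixed sets under 10 TPM were left out, whether led by an X-linked copy, as pfk-1 at 4.98 TPM and selt-1 at 8.89 TPM, or by an autosomal one, as taf-7 at 6.73 TPM. The numbers of X-linked and autosomal copies per set were not weighed. It was autosomal in every library in 19 sets and X-linked in every library in 2. The elongation factor gene eef-1A.2 on the X had 12.2 TPM beside 23067 TPM for autosomal eef-1A.1. The ribosomal protein gene rpl-11.2 on the X had 64.1 TPM beside 3253 TPM for autosomal rpl-11.1, and rpl-25.1 on the X had 15.9 TPM beside 2504 TPM for autosomal rpl-25.2. The cytochrome b5 gene cytb-5.1 on the X had 3.12, 3.11 and 1.72 TPM, and autosomal cytb-5.2 had 353, 284 and 351 TPM. The exceptions were snrp-40.1, a splicing factor gene, with 57.2 TPM beside 41.05 TPM for autosomal snrp-40.2, and sfxn-1.5 for a mitochondrial carrier with 9.44 TPM. In the remaining set the order changed between libraries, as autosomal zipt-7.1 had 18.3, 26.2 and 23.2 TPM and X-linked zipt-7.2 had 20.8, 26.9 and 9.37 TPM. Near-identical copies can lose reads that align to both, which was not measured per set.

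The detected genes were split into 10 equal groups, or deciles, by level to see which features of their genes went with it. X-linked genes made up 29.03% of the lowest decile and 1.61% of the highest. Coding length was longest in the middle, with a median of 1470 bases in the fifth decile, 801 bases in the highest and 951 bases among genes not detected. The median number of exons was 4 in the highest decile and 7 in the fifth. A close upstream neighbour on the same strand, at most 500 bases away as is common in the operons of C. elegans, was found for 17.7% of genes in the lowest decile, 38.2% in the eighth and 25.6% in the highest, and for 15.9% of genes not detected. Neighbours that overlap the gene were counted as close. Chromosomes I and III together held 42.5% of detected genes and 20.9% of those not detected.

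**Figure D5:**
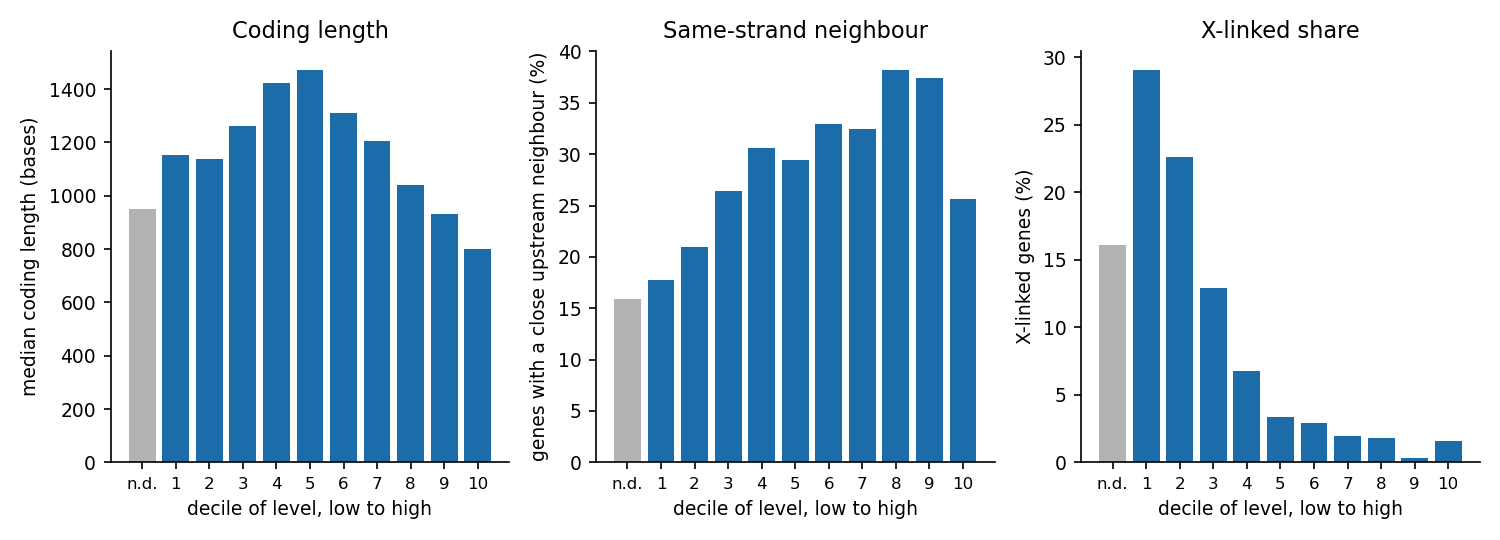
Median coding length (left, bases), share of genes with a same-strand upstream neighbour within 500 bases (middle, %) and share of X-linked genes (right, %) for genes not detected (n.d., grey) and for deciles of the detected genes from low to high level (blue). The X-linked share is 29.03% in the lowest decile and 1.61% in the highest. Neighbours that overlap the gene are included.

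Detection went together in neighbouring genes. Of 4005 genes with a same-strand upstream neighbour at most 500 bases away, 45.2% were detected. Neighbours that overlap the gene count as close in these values. The share was 75.9% where the neighbour was detected and 16.2% where it was not. Close neighbours on opposite strands gave the same picture, with 79.2% and 19.8%. At gaps over 500 bases the shares were 39.4% and 14.6% on the same strand, and 54.8% and 16.7% on opposite strands. The level itself was only weakly related within pairs in which both genes were detected, with Spearman's rho across gene pairs of 0.174 for 1475 close same-strand pairs and 0.268 for 960 close opposite-strand pairs. These pairs share chromosome, library and depth, and the values describe the pairs in these libraries only. Reads of overlapping genes could not be told apart, and 31.9% of the detected genes have exons that overlap another gene.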

How the data were processed

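The values deposited for each library are raw read counts for every gene, in whole numbers and without scaling. The submitters' processing notes list HTSeq 0.7.2, STAR 2.7.3a, DESeq2 1.36.0 and fastp 0.20.1, with no role for any. How they were set, which build and annotation were used and whether counting used strand is not given in the sources used here. Libraries were sequenced as single reads of 50 bases, per the labels. Counter lines that name no gene were left out: 1.06 to 1.83% of a library's reads lay on no feature, 1.01 to 1.55% were ambiguous and 3.49 to 4.55% aligned to more than 1 place. Of 46934 identifiers, 46923 were in the Ensembl release 115 annotation of WBcel235, which gave names, chromosomes and exon lengths. TPM used the union of a gene's exons, with nuclear ribosomal RNA genes left out. Shares of the total are shares of this TPM sum.

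Work was done in Python 3.11.15 (numpy 2.4.6, pandas 2.3.3, scipy 1.17.1) and R 4.3.3, and the scripts were tested on simulated data. edgeR 4.0.16 (TMM) and DESeq2 1.42.0 (size factors) served as other scalings. Replicate pairs differed beyond counting noise (chi-square per degree of freedom 56.8 to 92.5), so each library counted as 1 replicate.

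The members and the 34 gene lists were chosen with earlier results of these data known. The pattern for chemoreceptors and that for ribosomal proteins were corrected for misread symbols after values had been seen. Genes were named by rule: the 20 highest, the 15 highest outside protein synthesis and cytoskeleton lists, the 3 highest of each list, the 10 highest X-linked genes, the 10 largest and 10 smallest coefficients of variation and the 5 highest non-coding genes. The largest variation was sought among genes of at least 100 reads in a library and 10 TPM on average. Other members were named for their roles or their low level, after their values were seen. Promoter sequence features were not analysed here.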

Additional observations from a re-analysis of the deposited data

How the results depend on the processing

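The number of detected genes, the share of the 100 highest genes and the X to autosome ratio of the share detected moved by less than 1.5 times or by less than 1 SD under every alternative run for them. The detected genes numbered 6928 at 0.5 TPM and 4612 at 5 TPM. The X to autosome ratio of median levels moved beyond its SD to 0.404 with detection at 5 TPM and to 0.582 with no threshold. By construction these change which genes enter. The median coefficient of variation moved to 20.1% with DESeq2 size factors, beyond the SD of the fits that leave out a replicate. Leaving out each replicate in turn gave 17.6 to 27.5%, with 17.6% without replicate 3. The same step gave 6309 to 6418 detected genes, 60.8 to 65.2% in the 100 highest genes, 0.142 to 0.175 for the ratio of medians and 0.621 to 0.669 for the ratio of shares. Of 340 recomputed list medians, 19 moved beyond 1 SD, all of them where genes under 10 reads in any library were left out, which removes low members. Leaving out genes shorter than a read was added after the data were seen and moved none of these results beyond its SD or by 1.5 times. The ratio of shares was not run with the filter on 10 reads, since the filter sets its denominator. Promoter features were not run. Depth limits genes under about 1 TPM, where few reads decide the level. No paired analysis was possible because 1 group was analysed and no test was made.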

Other observations

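Coding genes held 99.8% of the reads outside ribosomal RNA in each of the 3 libraries. Pseudogenes held 0.150 to 0.178%, from 91 of 2128 genes with at least 10 reads in every library. Among 194 long intergenic RNA genes, 4 reached 10 reads in every library. The non-coding gene C06A1.12 had 626, 895 and 1180 reads, and Y40A1A.6, on the X chromosome, had 228, 256 and 326 reads. Beside C06A1.12 lies the pseudogene WBGene00014667, which had 1632, 2127 and 3654 reads, and another pseudogene of chromosome II, WBGene00014307, had 846, 582 and 924 reads.

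Of 15363 annotated piRNA genes, 1 had at least 10 reads in every library. This was 21ur-328, with 400, 719 and 1035 reads. Its annotated length is shorter than a read, so its TPM value has no meaning as a level and is not given. The 15505 genes shorter than a read held 0.315, 0.745 and 0.534% of the TPM total. No transfer RNA, microRNA or small nuclear RNA gene reached 10 reads in every library.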
